A study of Mus musculus with 6 samples.

Results

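Ribosome biogenesis factors and RNA polymerase I were followed in RNA of the mouse tumour line Lewis lung carcinoma. The set held 54 genes, chosen by symbol for their roles: 53 that encode proteins and Rn45s, the precursor of ribosomal RNA (rRNA). The choice was made with earlier results of these data known. All 54 were found among the 19617 rows of the deposited expression table, and all 54 passed the filter for testing, an average level over the libraries of 1 TPM or more. Levels are in TPM, the usual length-scaled share of a library's transcripts.

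Doxycycline switched on a short hairpin RNA (shRNA) in the cells. It had a scrambled sequence in 3 libraries (genotype given as Urod wildtype) and targeted Urod in the other 3 (Urod knockdown). Urod encodes uroporphyrinogen decarboxylase, an enzyme of heme synthesis. Both groups were kept on 2 ug/mL doxycycline for 4 days, and the scrambled hairpin was delivered by lentivirus. With 1 tumour line and 1 comparison of hairpins, effects of losing Urod and any other difference between the populations cannot be told apart. Whether the populations were clones or pools is not given in these sources.

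Ribosomes are assembled mostly in the nucleolus. RNA polymerase I transcribes the rRNA genes into a long precursor, which small nucleolar RNA-protein particles (snoRNPs) modify and the small subunit processome folds and cuts. Further factors then build the large subunit around the remaining RNA. Growing tumour cells are known for high activity of this pathway, and the transcription factor MYC is a known activator of many of its genes.

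The targeted gene separated the groups. Urod stood at 95.2, 89.9 and 92.1 TPM with the scrambled hairpin, against 5.71, 5.21 and 5.35 TPM with the Urod hairpin (log2 change -3.86, SE 0.05, limma, adjusted p = 8.22e-09). Of 5 epithelial markers, the keratin gene Krt8 rose from 315 ± 13.5 to 459 ± 12.7 TPM, Epcam fell from 1.96 ± 0.195 to 0.943 ± 0.116 TPM (SD, n = 3 each), and Krt18, Krt19 and Cdh1 reached 0.912 TPM at most. Their summed level lay between 305 and 331 TPM in scrambled and between 447 and 470 TPM in Urod shRNA libraries. The leukocyte marker Ptprc reached 0.0792 TPM at most, and the 4 leukocyte markers measured summed to 1.13 TPM at most. Of 4 mesenchymal markers 3 fell, among them Vim. Their summed level went from between 11111 and 11343 TPM to between 5439 and 5493 TPM. All 4 endothelial markers had higher means with the Urod hairpin. Their sum went from between 4.93 and 5.26 TPM to between 8.67 and 9.58 TPM. The 3 erythroid markers measured summed to 0.956 TPM at most in scrambled and 1.21 TPM at most in Urod shRNA libraries. The part of any of these shifts in the results was not tested. Depth cannot be read from TPM, so no counting interval is given. Nothing in the labels says whether replicates were separate cultures, and p-values reflect only how far these libraries spread, possibly for technical reasons.

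Nearly the whole pathway was higher in cells with the Urod hairpin. Of the 54 genes, 51 rose, 0 fell and 3 did not pass the test (limma on log2(TPM + 1), Benjamini-Hochberg adjusted p under 0.05 over 11980 genes). Over all genes tested, 38.5% rose and 36.2% fell. Of genes averaging 10 TPM or more, 41.6% rose. The median log2 change of the 53 protein-coding genes was 0.72, against 0.02 over all genes tested.

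Most single changes were of moderate size. The protein-coding genes lay between -0.06 and 1.76 on the log2 scale, and 8 of the 54, Rn45s included, rose at least 2-fold in mean TPM, as did 4.07% of all genes tested. In 51 of the 54 every Urod shRNA library was above every scrambled library, which held for 39.8% of all genes tested; groups were apart in either direction for 77.3%. Together the 53 transcripts made up between 0.557% and 0.586% of all TPM in scrambled libraries and between 0.922% and 0.933% in Urod shRNA libraries. In bulk RNA, fewer cells of a type and less RNA per cell cannot be told apart, and a share of a library does not show the amount of RNA in a cell.

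**Figure D1:**
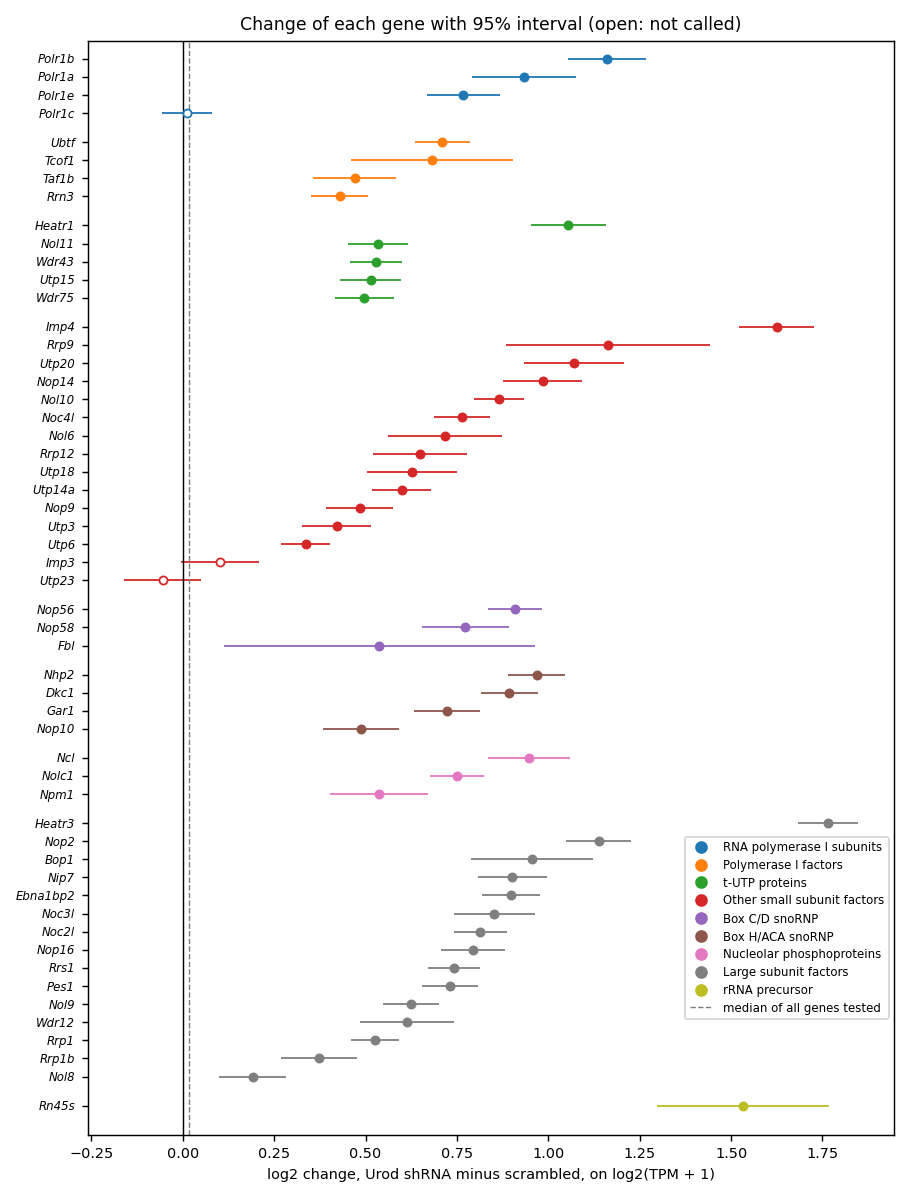
Change of each of the 54 genes between Urod shRNA and scrambled libraries, as the difference of mean log2(TPM + 1) with its 95% interval from limma, grouped and coloured by role. Filled points passed the test and open points did not: 51 points are filled and lie to the right of 0, and Polr1c, Imp3 and Utp23 are open, with intervals that include 0.

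RNA polymerase I itself showed a split between its subunits. Polr1a encodes the largest subunit and Polr1b the second largest, which together form the catalytic centre. Polr1a stood at 29.3, 32.6 and 30.8 TPM with the scrambled hairpin, against 55.3, 63.4 and 61.0 TPM with the Urod hairpin. Polr1b stood at 17.5, 18.9 and 18.0 TPM with the scrambled hairpin, against 39.96, 43.0 and 42.3 TPM with the Urod hairpin. For both genes all Urod shRNA values were above all scrambled values. The log2 changes were 0.93 for Polr1a (SE 0.06, limma, adjusted p = 5.77e-06) and 1.16 for Polr1b (SE 0.05, limma, adjusted p = 5.55e-07). Polr1e, a further subunit of polymerase I, rose 1.75-fold, with 15.8 ± 0.574 TPM scrambled and 27.7 ± 0.534 TPM Urod shRNA (SD, n = 3 each).

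Polr1c encodes a subunit that RNA polymerases I and III share. It stood at 99.7, 102.6 and 100.2 TPM with the scrambled hairpin, against 101.4, 103.7 and 99.9 TPM with the Urod hairpin, so the groups overlapped. Its log2 change was 0.01 (95% interval -0.06 to 0.08, limma, adjusted p = 0.714), and the sign of this small value turned under other scalings. The ratio of Polr1b to Polr1c transcripts was 0.180 ± 0.00436 in scrambled and 0.411 ± 0.0149 in Urod shRNA libraries (SD, n = 3 each). That of Polr1a to Polr1c was 0.306 ± 0.0115 and 0.589 ± 0.0381. In all, 7 such ratios were computed, for pairs picked after the values were seen, so they are given as descriptions with no test. The groups were apart for 6 of them and overlapped for Fbl to Nop56.

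The other genes of polymerase I, given here from a list of its remaining subunits and factors, fell on both sides of this split. Twistnb and Cd3eap, subunits found only in polymerase I, rose 2.21-fold and 2.27-fold. Polr1d, the other subunit shared with polymerase III, rose by 0.19 on the log2 scale (SE 0.04, limma, adjusted p = 0.00546), from 147 ± 6.42 to 168 ± 7.49 TPM. Znrd1, a small subunit of polymerase I, stood at 67.7 ± 4.18 TPM scrambled and 69.6 ± 5.90 TPM Urod shRNA (SD, n = 3 each; adjusted p = 0.632 by limma). A difference between shared and specific subunits as classes was not tested.

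Of the factors that bring polymerase I to the rRNA genes, the 4 in the set rose, 4 of 4. Of further parts of the promoter selectivity factor outside the set, Taf1a rose 1.55-fold and Taf1c rose 1.80-fold. Taf1d, also such a part, did not pass, at 144 ± 10.5 TPM scrambled and 139 ± 8.27 TPM Urod shRNA (SD, n = 3 each). Ubtf encodes the upstream binding factor, which coats the rRNA genes. It stood at 79.6, 82.8 and 80.2 TPM with the scrambled hairpin, against 129, 135 and 135 TPM with the Urod hairpin. The 2 groups were far apart relative to their spread, with a log2 change of 0.71 (SE 0.03, limma, adjusted p = 9.80e-07). Tcof1, which encodes treacle, a nucleolar partner of that factor, stood at 45.5, 55.3 and 56.1 TPM with the scrambled hairpin, against 75.6, 90.3 and 87.0 TPM with the Urod hairpin. Replicate 1 was the lowest library of both groups for Tcof1, yet the groups did not overlap (log2 change 0.68, SE 0.09, limma, adjusted p = 0.000342). Taf1b, another part of the selectivity factor, rose 1.39-fold and Rrn3, which links the polymerase to that factor, rose 1.35-fold.

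**Figure D2:**
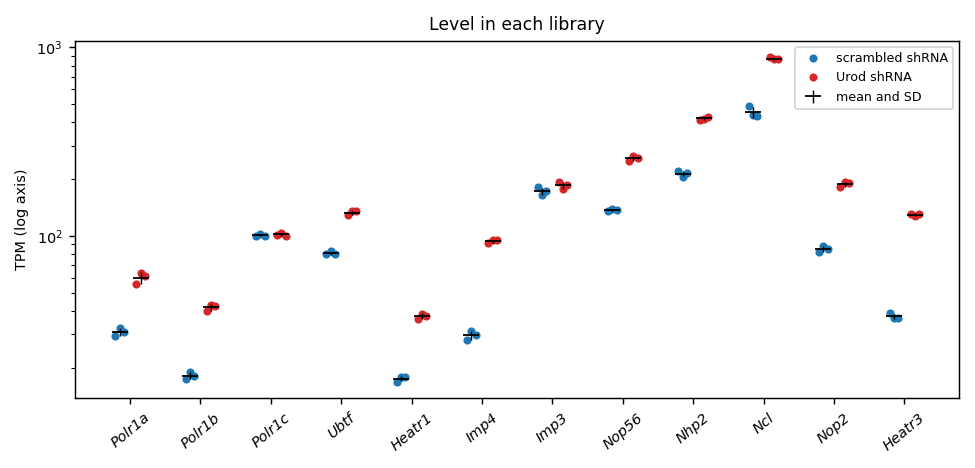
TPM on a log axis of 12 genes in each library, with scrambled libraries in blue, Urod shRNA libraries in red and black marks for mean and SD (n = 3 each). The groups are apart for 10 of the genes, while Polr1c (99.7 to 102.6 against 99.9 to 103.7 TPM) and Imp3 overlap.

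The small subunit processome acts first on the precursor, and its t-UTP proteins bind while transcription is still under way. All 5 t-UTP genes rose. Heatr1 stood at 16.8, 17.8 and 17.9 TPM with the scrambled hairpin, against 36.1, 38.7 and 37.5 TPM with the Urod hairpin, a log2 change of 1.05 (SE 0.04, limma, adjusted p = 7.07e-07). Nol11 stood at 56.8, 53.6 and 54.4 TPM with the scrambled hairpin, against 81.1, 80.6 and 78.2 TPM with the Urod hairpin, a log2 change of 0.53 (SE 0.03, limma, adjusted p = 5.86e-06). Neither gene had overlapping groups. Wdr43, Utp15 and Wdr75 lay close to Nol11, at 0.53, 0.51 and 0.50 on the log2 scale.

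The remaining small subunit factors covered a wide range, with 13 of 15 higher and 0 lower (median log2 change 0.65). Imp4, which with Imp3 and Mphosph10 forms a subcomplex that holds the U3 small nucleolar RNA on the precursor, had the largest rise. It stood at 28.1, 31.2 and 29.8 TPM with the scrambled hairpin, against 91.2, 94.5 and 94.9 TPM with the Urod hairpin (3.15-fold, log2 change 1.62, SE 0.04, limma, adjusted p = 1.28e-07). Imp3 stood at 181, 165 and 172 TPM with the scrambled hairpin, against 194, 178 and 185 TPM with the Urod hairpin. Its groups overlapped and it did not pass (log2 change 0.10, 95% interval -0.004 to 0.21, limma, adjusted p = 0.0727). The log2 change of Imp3 did pass with the replicate block (limma, adjusted p = 0.00146), without scrambled replicate 1 (0.0211) and without Urod shRNA replicate 2 (0.0430).

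As a description within this subcomplex, there were 0.172 ± 0.0168 Imp4 transcripts per Imp3 transcript in scrambled libraries and 0.505 ± 0.0316 in Urod shRNA libraries (SD, n = 3 each). This pair set the largest rise of the group against a gene that did not pass.

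Rrp9 encodes the U3-specific protein of the U3 snoRNP. It stood at 73.1, 93.2 and 101.8 TPM with the scrambled hairpin, against 181, 211 and 208 TPM with the Urod hairpin. Its spread was wide, with replicate 1 lowest in both groups, and the groups were still apart (log2 change 1.16, SE 0.12, limma, adjusted p = 6.40e-05). Utp20, a very large scaffold protein of the particle, rose 2.24-fold at a low level, with 8.07 ± 0.181 TPM scrambled and 18.1 ± 1.23 TPM Urod shRNA (SD, n = 3 each). Nop14 (0.98), Nol10 (0.86), Noc4l (0.76), Nol6 (0.72), Rrp12 (0.65), Utp18 (0.63), Utp14a (0.60), Nop9 (0.48), Utp3 (0.42) and Utp6 (0.34) followed on the log2 scale. Utp23, a nuclease-like factor that in yeast removes the snoRNA snR30 from the precursor, was the only one of the 54 with a value below 0. It stood at 27.2, 26.9 and 26.5 TPM with the scrambled hairpin, against 27.3, 25.0 and 25.2 TPM with the Urod hairpin, with overlapping groups (log2 change -0.06, limma, adjusted p = 0.292).

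The core proteins of both classes of snoRNP were higher. Box C/D particles guide ribose methylation, with Fbl (fibrillarin) as the methyltransferase on a scaffold of Nop56 and Nop58. All 3 genes rose. Nop56 stood at 135, 138 and 137 TPM with the scrambled hairpin, against 249, 265 and 259 TPM with the Urod hairpin (log2 change 0.91, SE 0.03, limma, adjusted p = 3.47e-07). Nop58 stood at 240, 215 and 216 TPM with the scrambled hairpin, against 399, 377 and 372 TPM with the Urod hairpin (log2 change 0.77, SE 0.05, limma, adjusted p = 6.09e-06). Both scaffold genes had groups far apart.

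Fbl was the least secure call. It stood at 29.2, 43.8 and 48.3 TPM with the scrambled hairpin, against 49.7, 64.5 and 60.5 TPM with the Urod hairpin, so that the highest scrambled value nearly met the lowest Urod shRNA value. The log2 change of Fbl was 0.54 (SE 0.18, limma, adjusted p = 0.0282), and the call was lost without Urod shRNA replicate 2 (limma, adjusted p = 0.0907), without Urod shRNA replicate 3 (0.0752) and with no filter on low values (0.0608). Without scrambled replicate 1 its log2 change was 0.33, and over the other single libraries left out it reached 0.68. The ratio of Fbl to Nop56 transcripts ran from 0.217 to 0.352 in scrambled and from 0.200 to 0.243 in Urod shRNA libraries, with overlapping groups. The 54 genes otherwise lost 0 of their 51 calls over the settings tried.

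Box H/ACA particles guide the conversion of uridine to pseudouridine, with Dkc1 (dyskerin) as the enzyme and Nhp2, Gar1 and Nop10 as its partners. All 4 genes rose. Nhp2 stood at 220, 206 and 216 TPM with the scrambled hairpin, against 414, 418 and 428 TPM with the Urod hairpin (log2 change 0.97, SE 0.03, limma, adjusted p = 3.07e-07). Dkc1 stood at 74.9, 71.9 and 70.2 TPM with the scrambled hairpin, against 138, 135 and 133 TPM with the Urod hairpin (log2 change 0.89, SE 0.03, limma, adjusted p = 4.50e-07). Gar1 rose by 0.72 and Nop10 by 0.49 on the log2 scale. The ratio of Nhp2 to Nop10 transcripts was 1.09 ± 0.0555 in scrambled and 1.52 ± 0.0417 in Urod shRNA libraries (SD, n = 3 each).

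The abundant nucleolar phosphoproteins rose as well, 3 of 3. Nucleolin (Ncl), which binds nascent rRNA and the chromatin of its genes, stood at 487, 440 and 431 TPM with the scrambled hairpin, against 890, 864 and 865 TPM with the Urod hairpin (log2 change 0.95, SE 0.05, limma, adjusted p = 1.71e-06). Nolc1, which escorts snoRNPs, stood at 150, 152 and 144 TPM with the scrambled hairpin, against 246, 256 and 250 TPM with the Urod hairpin (log2 change 0.75, SE 0.03, limma, adjusted p = 7.41e-07). Neither gene had overlapping groups. Nucleophosmin (Npm1), the most abundant of the 53 transcripts, rose 1.45-fold, with 1224 ± 86.4 TPM scrambled and 1775 ± 85.6 TPM Urod shRNA (SD, n = 3 each). Npm1 has processed pseudogenes that can share reads, so its level is uncertain. The ratio of Ncl to Npm1 transcripts was 0.370 ± 0.00386 in scrambled and 0.492 ± 0.0151 in Urod shRNA libraries.

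All 15 factors of large subunit assembly in the set rose, with a median log2 change of 0.79. Heatr3 had the largest rise of the 54 genes. Its yeast counterpart brings ribosomal proteins Rpl5 and Rpl11 into the nucleus, where they join 5S rRNA. Heatr3 stood at 38.8, 36.7 and 36.7 TPM with the scrambled hairpin, against 130, 127 and 131 TPM with the Urod hairpin (3.46-fold, log2 change 1.76, SE 0.04, limma, adjusted p = 4.20e-08). Rrs1, which in yeast helps to place the same 5S particle in the large subunit, went from 52.9 ± 1.08 to 89.2 ± 1.29 TPM (SD, n = 3 each). The number of Heatr3 transcripts per Rrs1 transcript was 0.706 ± 0.0326 in scrambled and 1.45 ± 0.0399 in Urod shRNA libraries (SD, n = 3 each).

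Nop2, an rRNA cytosine methyltransferase, stood at 82.1, 88.4 and 84.7 TPM with the scrambled hairpin, against 182, 193 and 190 TPM with the Urod hairpin, with the groups well apart (log2 change 1.14, SE 0.04, limma, adjusted p = 2.92e-07). The 3 proteins of the PeBoW complex, needed to cut and mature the large subunit RNA, rose by 0.96 (Bop1), 0.73 (Pes1) and 0.61 (Wdr12) on the log2 scale. Nip7 (0.90), Ebna1bp2 (0.90), Noc3l (0.85), Noc2l (0.81) and Nop16 (0.79), all pre-ribosome proteins of the large subunit, lay near or above the middle. Nol9, a polynucleotide kinase that acts in processing of the spacer, rose by 0.62 and Rrp1 by 0.53. The smallest rises were those of Rrp1b (0.37) and Nol8, which went from 32.4 ± 1.27 to 37.2 ± 0.408 TPM (SD, n = 3 each), a log2 change of 0.19 with adjusted p = 0.00280 by limma.

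The rRNA precursor row was higher too. Rn45s stood at 1139, 1302 and 1499 TPM with the scrambled hairpin, against 3703, 3533 and 4111 TPM with the Urod hairpin. The groups did not overlap, and the mean was 2.88-fold higher (log2 change 1.53, SE 0.10, limma, adjusted p = 6.10e-06). Its share of all TPM was 0.114% to 0.150% with the scrambled hairpin and 0.353% to 0.411% with the Urod hairpin. The precursor is not polyadenylated, whereas the libraries were selected for polyadenylated RNA, so its reads may be those that escaped the selection. Whether they came from the precursor or from mature rRNA cut from it was not tested.

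Other RNAs without a poly(A) tail were read beside it. Of 21 such RNAs given, 10 were in the table and 7 passed the filter. Of these, 4 rose and 1 fell, against 38.5% of all genes tested that rose and 36.2% that fell. Rpph1, the RNA of RNase P, stood at 4.93, 6.91 and 15.8 TPM with the scrambled hairpin, against 29.4, 30.5 and 24.6 TPM with the Urod hairpin. Rmrp, the RNA of RNase MRP, stood at 3.45, 4.08 and 7.69 TPM with the scrambled hairpin, against 18.1, 17.5 and 11.4 TPM with the Urod hairpin. Both had groups that did not overlap, with folds of 3.06 and 3.08 close to that of Rn45s. Scarna2 and Snora74a were the others that rose, both at low levels. Scarna2 stood at 0, 0.920 and 0 TPM with the scrambled hairpin, against 2.13, 2.23 and 0.828 TPM with the Urod hairpin. Its groups overlapped. Snora74a went from 1.03 ± 0.267 to 2.96 ± 0.111 TPM (SD, n = 3 each). Snora65, the most abundant of the 10, fell by 0.39 on the log2 scale. It went from 331 ± 21.6 to 253 ± 21.9 TPM (SD, n = 3 each). Summed with Snora65, the 10 RNAs took 348 to 372 TPM in scrambled and 278 to 340 TPM in Urod shRNA libraries. Summed without Snora65, the 9 other RNAs took 16.1 to 32.0 TPM in scrambled and 48.2 to 74.7 TPM in Urod shRNA libraries. Several defining members (Terc, Rnu11, Rnu12) were near 0. The part of these shifts, which went in both directions, in the result for Rn45s was not tested.

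**Figure D3:**
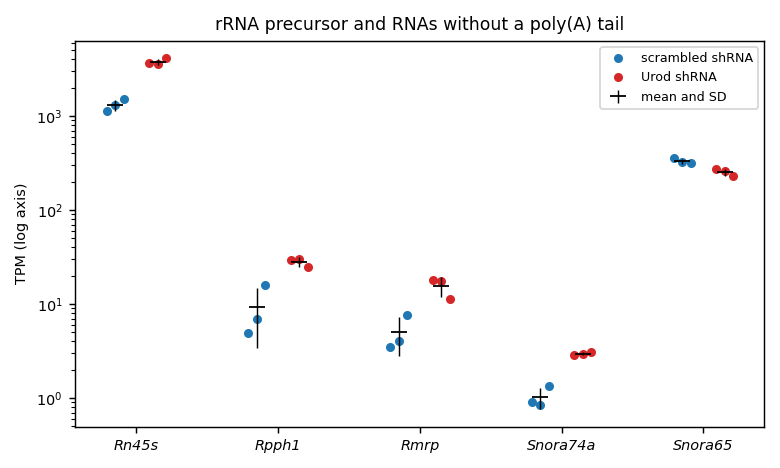
TPM on a log axis of Rn45s and of 4 RNAs without a poly(A) tail in each library, with scrambled libraries in blue, Urod shRNA libraries in red and black marks for mean and SD (n = 3 each). Rn45s, Rpph1, Rmrp and Snora74a are higher in all Urod shRNA libraries, and Snora65 is lower in all of them.

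Rn45s took at most 0.411% of TPM in any library, so leaving it out could shift the scale of the protein-coding genes only slightly. When TPM were rescaled without Rn45s and those RNAs, 51 of the 54 genes rose again, the same genes, and the median log2 change of the 53 was 0.73. Rescaling does not show whether the RNA selection itself affected the protein-coding genes, and that was not tested.

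Beyond the 54, the rest of the pathway was read from a list of 99 further genes, all of them measured and tested. Of these, 91 rose, 0 fell and 8 did not pass, against 38.5% of all genes that rose and 36.2% that fell. The median log2 change was 0.59. By role, 32 of 32 other small subunit factors rose, 33 of 34 large subunit factors, 13 of 15 genes of the RNA exosome and its cofactors, 7 of 9 snoRNP assembly factors and 6 of 9 polymerase I genes.

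The 5 largest rises of that list were as follows. Cirh1a, another t-UTP protein, went from 129 ± 4.33 to 303 ± 3.35 TPM, 2.34-fold. Cd3eap and Twistnb followed, then Ftsj3, a methyltransferase of pre-ribosomes, at 2.19-fold, and the processome protein Wdr36, at 2.07-fold. The 8 that did not pass were Ttf1, the terminator of polymerase I (log2 change -0.10), Nsa2 (-0.06), Taf1d (-0.05), Znhit6 (-0.03), Shq1 (-0.02), Mphosph6 (0.01), Znrd1 (0.04) and Exosc8 (0.09). These 99 genes were read in the same libraries, were listed with earlier results of these data known, and are no independent sample.

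**Figure D4:**
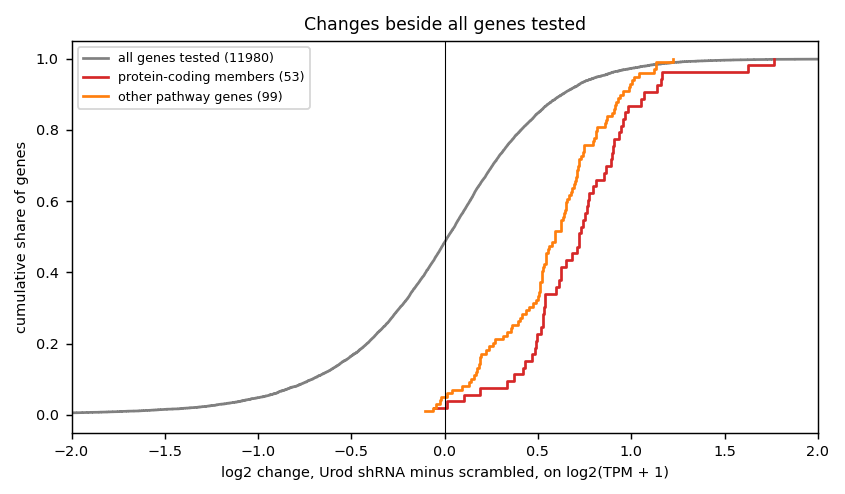
Cumulative share of genes by log2 change between Urod shRNA and scrambled libraries, on log2(TPM + 1), for all 11980 genes tested (grey), the 53 protein-coding genes described here (red) and the 99 other pathway genes (orange), shown between -2 and 2. Both pathway curves lie to the right of the grey one, with medians of 0.72 and 0.59 against 0.02.

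The promoters of these genes were searched for sites of known regulators, since the genes moved together. RefSeq promoter sequences on GRCm38.p6, from 250 bases before to 50 after each start, were matched by symbol for 44 of the 54 genes. There were none for Tcof1, Nol6, Utp6, Utp23, Rrp12, Fbl, Npm1, Bop1, Rrs1 and Rn45s. The motif CACGTG, the E-box that MYC and its relatives can bind, was in 8 of the 44 (18.2%), against 8.09% of 27025 genes with a promoter entry and 12.0% of the 8880 of them that were tested here. The motif CCGGAAGT, or its reverse complement ACTTCCGG, a core of ETS family sites, was in 11 of the 44 (25.0%), against 4.31% and 9.80%.

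Both strands were searched, and the first motif reads the same on each. Of 2 other motifs tried, each as an exact palindrome, that of ZBTB33 (Kaiso) was in 1 of the 44 (Nol9), against 0.525% of all promoters and 1.25% of those of tested genes. That of NRF1 was in 0, against 1.07% and 2.48%. The motifs were picked with the results known. The 5 promoters that follow are shown because they pair a motif with contrasting changes: Imp4, Nop2 and Rrn3 hold CACGTG, Rrn3, Heatr1 and Polr1c hold the ETS core, and Polr1c did not pass the test. Capitals mark the motifs, and each sequence runs 5′ to 3′ along the gene.
Imp4 promoter, chr1:34439579-34439878, plus strand: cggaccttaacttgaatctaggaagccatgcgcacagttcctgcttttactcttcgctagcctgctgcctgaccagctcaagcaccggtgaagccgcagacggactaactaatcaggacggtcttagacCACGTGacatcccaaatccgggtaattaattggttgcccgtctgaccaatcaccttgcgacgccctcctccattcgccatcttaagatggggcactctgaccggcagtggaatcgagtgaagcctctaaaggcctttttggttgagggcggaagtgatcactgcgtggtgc
Nop2 promoter, chr6:125131633-125131932, plus strand: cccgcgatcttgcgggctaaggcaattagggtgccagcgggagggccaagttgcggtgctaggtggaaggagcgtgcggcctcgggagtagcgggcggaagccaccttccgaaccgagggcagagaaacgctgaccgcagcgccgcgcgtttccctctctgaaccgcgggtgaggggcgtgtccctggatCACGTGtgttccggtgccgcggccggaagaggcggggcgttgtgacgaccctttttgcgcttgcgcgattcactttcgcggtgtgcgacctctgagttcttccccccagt
Rrn3 promoter, chr16:13780449-13780748, plus strand: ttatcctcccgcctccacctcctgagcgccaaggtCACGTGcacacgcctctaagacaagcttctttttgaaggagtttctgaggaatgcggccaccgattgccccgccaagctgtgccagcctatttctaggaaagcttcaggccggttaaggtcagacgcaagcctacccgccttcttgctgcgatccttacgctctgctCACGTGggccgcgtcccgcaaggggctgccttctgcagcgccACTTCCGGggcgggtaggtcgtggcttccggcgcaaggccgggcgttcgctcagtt
Heatr1 promoter, chr13:12395125-12395424, plus strand: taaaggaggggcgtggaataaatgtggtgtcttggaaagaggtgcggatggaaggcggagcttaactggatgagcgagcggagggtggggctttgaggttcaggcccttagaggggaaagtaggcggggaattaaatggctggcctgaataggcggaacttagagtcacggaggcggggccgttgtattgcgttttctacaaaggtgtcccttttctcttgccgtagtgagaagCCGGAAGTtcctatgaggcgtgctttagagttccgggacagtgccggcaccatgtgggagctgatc
Polr1c promoter, chr17:46247996-46248295, minus strand: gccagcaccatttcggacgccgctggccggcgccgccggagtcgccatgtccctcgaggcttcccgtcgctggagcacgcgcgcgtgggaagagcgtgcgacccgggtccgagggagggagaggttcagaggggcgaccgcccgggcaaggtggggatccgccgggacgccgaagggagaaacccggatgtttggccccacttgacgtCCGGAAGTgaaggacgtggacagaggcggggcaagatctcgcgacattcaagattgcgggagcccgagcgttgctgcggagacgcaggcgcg

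The motif letters did not sort the genes by size of change. The 8 genes with CACGTG, namely Rrn3, Nol11, Wdr43, Utp18, Imp4, Utp20, Nop2 and Pes1, had a median log2 change of 0.68, and the matched genes without it 0.77. The 11 with the ETS core had a median of 0.81, and those without it 0.73. A match is a description of letters and not evidence of binding. Myc itself stood at 1869, 2032 and 2062 TPM with the scrambled hairpin, against 956, 1019 and 989 TPM with the Urod hairpin. Its groups did not overlap and its direction was opposite to that of the 51 genes (log2 change -1.01, SE 0.05, limma, adjusted p = 1.00e-06).

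Size of change was also little related to transcript properties within the set. Across the 53 protein-coding genes, Spearman's rho of the log2 change was 0.15 with transcript length, 0.17 with GC content and 0.06 with mean TPM. These are descriptions across genes that share libraries. The genes were well expressed, with means between 13.1 and 1499 TPM and a median of 96.7 TPM, against 28.4 TPM over all genes tested.

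Replicate 1 differed from the other replicates in a like way in both groups. It was the lowest library of both groups for 16 of the 53 genes, among them Fbl, Rrp9, Bop1 and Tcof1, and the highest of both for 19. The median GC content of those transcripts was 53.9% and 45.2%. Across the 53 genes, the deviation of replicate 1 from the mean of the other 2 had a Pearson r with GC content of -0.60 in scrambled and -0.62 in Urod shRNA libraries, as a description. With replicate 1 of both groups left out, 52 of the 54 rose, the 51 reported and Imp3. With a trend in GC content and length removed from each library, the count was 52 again, with the same gene added, and the median log2 change of the 53 was 0.78.

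**Figure D5:**
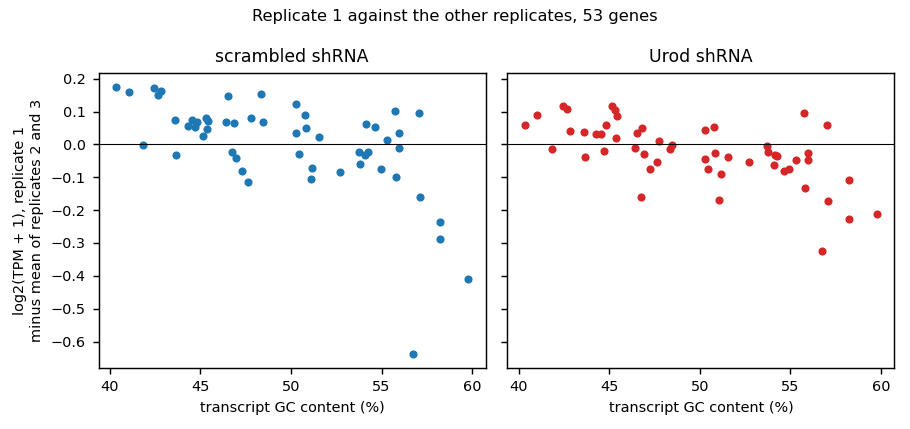
Difference in log2(TPM + 1) between replicate 1 and the mean of replicates 2 and 3, for the 53 protein-coding genes, against transcript GC content in percent, with scrambled libraries at left and Urod shRNA libraries at right. Points fall with rising GC content in both panels (Pearson r of -0.60 and -0.62), and the lowest point of each panel is Fbl.

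The authors' deposited table of the same comparison gave a like account of these genes. Of the 54 genes, 51 had in the authors' deposited table a false discovery rate under 0.05 and a positive log2 fold change, as did 28.1% of its 19590 rows that carry a gene name. Those 51 were the genes called here. In the authors' deposited table Polr1c had a log2 fold change of 0.02, Imp3 of 0.11 and Utp23 of -0.05. Its values come from the same 6 libraries. The authors' deposited gene list for pathway analysis held 451 genes, which is 2.30% of the 19590 named rows. Of the 54, 3 (5.56%) were in it, namely Heatr3, Imp4 and Rn45s. In the authors' deposited table these had the largest log2 fold changes of the 54, at 1.80, 1.66 and 1.53. Whether that list was cut by size of change was not tested.

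By position, the protein-coding genes of the set with the largest folds of mean TPM, Heatr3, Imp4 and Polr1b, lie on different chromosomes. By the GENCODE M21 annotation of GRCm38 (mm10), Heatr3 (ENSMUSG00000031657.16) is a protein-coding gene on the plus strand of chromosome 8, from 88137855 to 88172027. Imp4 (ENSMUSG00000026127.13) lies on the plus strand of chromosome 1, from 34439851 to 34449356, and Polr1b (ENSMUSG00000027395.15) on that of chromosome 2, from 129100995 to 129126594. Exons of 8 of the genes share bases with an exon of a coding gene on the opposite strand, from 5 bases (Nop56 with Idh3b) to 860 bases (Nop9 with Cideb). Whether reads were counted by strand is not given in these sources, so the values of Nop9 and of Noc2l, which shares 598 bases with Samd11, are uncertain for that reason.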

How the data were processed

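RNA was sequenced from 3 scrambled and 3 Urod shRNA libraries, grouped by their titles. Per the labels' protocols, polyadenylated RNA was sequenced as strand-specific 51-bp single-end reads, mapped to mm10 with TopHat, filtered at a mapping quality of 10 and quantified with Cufflinks, with Cuffdiff at version 2.1.1 in the submitters' notes. That filter can lower genes with near-identical copies.

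The deposited expression table carries the name of normalized counts. Every column adds up to 1000000, and the values relative to the authors' log2 CPM follow transcript length (Pearson r = -0.934 across 11435 genes), so they were read as TPM made by the authors. Per the file headers, the authors' table of the comparison gives FDR and p-values, a likelihood ratio as score, and fold changes and CPM as log2. The test behind it is not stated.

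Of 19617 rows, 27 hold a date where the symbol belongs and were left out (0.231% to 0.241% of TPM per library). Genes averaging 1 TPM or more (11980) were fitted as log2(TPM + 1) with limma 3.58.1 in R 4.3.3: group only, variance trend, two-sided, Benjamini-Hochberg adjustment over all of them, threshold 0.05. Folds are ratios of mean TPM. The log2 scale understates the change of low genes. The procedure was tested on simulated data in which far fewer genes changed than the 74.7% called here in either direction. That test therefore does not show how calls behave when most genes change. Ratios of 2 genes are given with no test.

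Members, roles and lists were chosen with earlier results of these data known. Given in every library were Urod, Rn45s, the 2 largest rises and falls of each role group and all members that did not pass; of the other pathway genes, the 5 largest changes each way. Myc, the gene pairs in ratios and the motifs were chosen after values were seen. Alternatives were pseudocounts of 0.1 and 10, other filters and scalings, changes to the variance model, the replicate number as a block, and each library left out; the GC and length correction and the loss of replicate 1 from both groups were added after the data were seen.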

Additional observations from a re-analysis of the deposited data

How the results depend on the processing

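Over the settings tried, the number of the 54 genes that rose stayed between 50 and 52 and the number that fell at 0. With single libraries left out there were 50 to 52 higher and 0 lower, 88 to 91 higher and 0 lower among the 99 other pathway genes, 4259 to 4586 higher and 3988 to 4422 lower over all genes, a median log2 change of the 53 between 0.71 and 0.75, and an Rn45s change between 1.43 and 1.63. The median of the 53 was 0.63 with a pseudocount of 10, which shrinks low values by construction, 0.68 with quantile normalization and 0.78 with the GC and length trend removed, alone or with the replicate block; for the latter 2 kinds of setting the cause was not tested.

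Other pathway genes called lower numbered 1 with median-ratio scaling (Ttf1), 1 with the replicate block (Ttf1), 1 with the GC and length trend removed (Taf1d) and 3 with both that trend removed and the block (Nsa2, Ttf1, Taf1d), each by 0.12 or less on the log2 scale; the cause was not tested. The log2 change of Polr1c turned to -0.0239 with quantile normalization, -0.0024 with median-ratio scaling and -0.0087 when rescaled without Hspa5, and lay between -0.0019 and 0.0249 with single libraries left out, passing the test in none of these. The median of all genes moved by less than 0.1 in every setting.

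Libraries with the same replicate number shared deviations only in part (r = 0.418, 0.214 and 0.0951 for numbers 1 to 3, and scrambled replicate 3 was closest to Urod shRNA replicate 2), so the numbers were not taken to pair them. With the replicate block 52 of the 54 rose, Imp3 being added, and the number of all genes called higher was 5116 and of all genes called lower 4766. TPM hold no counts, so depth sets an unknown limit on small differences such as those of Polr1c, Utp23 and Imp3.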
